A study of Mus musculus with 22 samples.

Results

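The control groups of the study stand for brain endothelium at rest, where rest means only the condition labels (control, or no whisker stimulation) and not a measured state. They are 11 of its 22 RNA sequencing libraries, chosen by their condition labels and not by any measured value. Endothelial cells line the vessel wall, and in the brain they form the blood-brain barrier: tight junctions seal the gaps between cells, efflux pumps return drugs to the blood, and carriers bring glucose, amino acids and hormones across. Transcytosis is kept low, and signals of the Wnt pathway keep this state. Along the vessel tree the cells differ, with arterial, capillary and venous gene programmes.

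Cells were sorted for CD31, the endothelial adhesion protein encoded by Pecam1, after cortex tissue had been dissociated. The activation control (4 libraries) and the silencing control (4 libraries) came from cortex and hippocampus, collected 3 hours after CNO, a drug that acts on the designer receptors called DREADDs. Their genotype labels are C57BL/6 CamKIIa-tTA; TRE-hM3Dq and the same with hM4Di, a design in which a promoter of excitatory neurons drives the receptor. The series text calls these animals littermates without DREADD expression, so the labels and the text differ on what they carried, and the tables used here do not settle it. The whisker-minus group (3 libraries) came from wild-type C57BL/6 mice without whiskers, kept in an empty cage, and each library pooled the barrel cortices of 5 pairs. The labels name no drug for that group. Experiment, region, CNO, transgenes, housing, pooling and sequencing depth therefore all change together between whisker-minus and the 8 DREADD controls, and cannot be told apart. The same holds for any batch that goes with the experiment, and no label used here names a batch.

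Values are CPM, read counts scaled to the same total in every library, which show a gene's share of a library's RNA. Depth was 18387666 to 25163689 reads in the activation controls, 30023977 to 31788585 in the silencing controls and 44187482 to 57673270 in whisker-minus, so that 1 CPM stood for 18.4 to 57.7 reads. Of 37991 listed genes, 17954 to 19860 had a read in a library, with the fewest in whisker-minus 2. Mitochondrial genes held 1.08 to 1.35% of reads. In log2(CPM + 1) the libraries of a group correlated at 0.949 to 0.988 and those of different groups at 0.909 to 0.983. Silencing control 2 stood apart: 312 of the 8901 genes averaging 10 CPM or more lay more than 1 log2 unit from the mean of the other libraries in its group, against 36 to 143 in the other 10 libraries. Calls that change without it are named beside the results. Where levels of different genes are compared, CPM was divided by exon length and rescaled to the same total (TPM, a level per length), averaged over the 3 groups, with the SD over the 11 libraries.

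The libraries read as brain endothelium in every sample. Of 20 pan-endothelial markers and 16 markers of brain endothelium, each averaged 100 CPM or more. Pecam1 lay at 1886, 1957, 1771 and 1797 CPM in the activation controls, at 1989, 1933, 2195 and 2093 in the silencing controls and at 1935, 1920 and 1874 in whisker-minus. Cdh5, the cadherin of endothelial adherens junctions, ranged from 958 to 1449 CPM over the 11 libraries. Cldn5, the main claudin of the barrier, had 4771, 3949, 3435 and 3647 CPM in the activation controls, 3684, 2102, 4922 and 5172 in the silencing controls and 3044, 2912 and 2277 in whisker-minus. Of these genes Cldn5 had the widest spread: whisker-minus lay below all 4 activation controls, and overlapped the silencing controls through silencing control 2 alone. Summed over the lists, endothelial markers reached 24600 to 29014 CPM and brain endothelial markers 33971 to 39776 CPM.

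Per length, the most abundant transcript of the nuclear genome was Bsg, which encodes basigin, a membrane glycoprotein that accompanies lactate carriers. It stood at 16699 ± 2472 TPM (SD, n = 11). Cldn5 followed at 9226 ± 2337 TPM. Slc2a1, the glucose carrier GLUT1, was at 7185 ± 2165 TPM, Itm2a, an integral membrane protein, at 7059 ± 864 TPM and Spock2, a secreted proteoglycan, at 5494 ± 647 TPM. The other named genes among the 20 highest included B2m, the light chain of class I antigens, Sepp1, the selenium carrier, Ly6c1 and Ly6a, surface proteins of the Ly6 family, Tmsb4x, an actin binder, Pltp, a phospholipid transfer protein, Sparcl1, a matrix protein, Rhob, a small GTPase, and Epas1, the hypoxia factor HIF-2 alpha. Their means lay between 3110 TPM (Epas1) and 4989 TPM (B2m). A pseudogene entry, Tpt1-ps3 with 519 bases of exon, and the short entry mmu-mir-689-2 with 57 bases also reached the list. Reads of near-identical copies can fall on such entries, and the second ranged from 16.3 to 375 CPM, so their length-scaled places are uncertain.

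**Figure D1:**
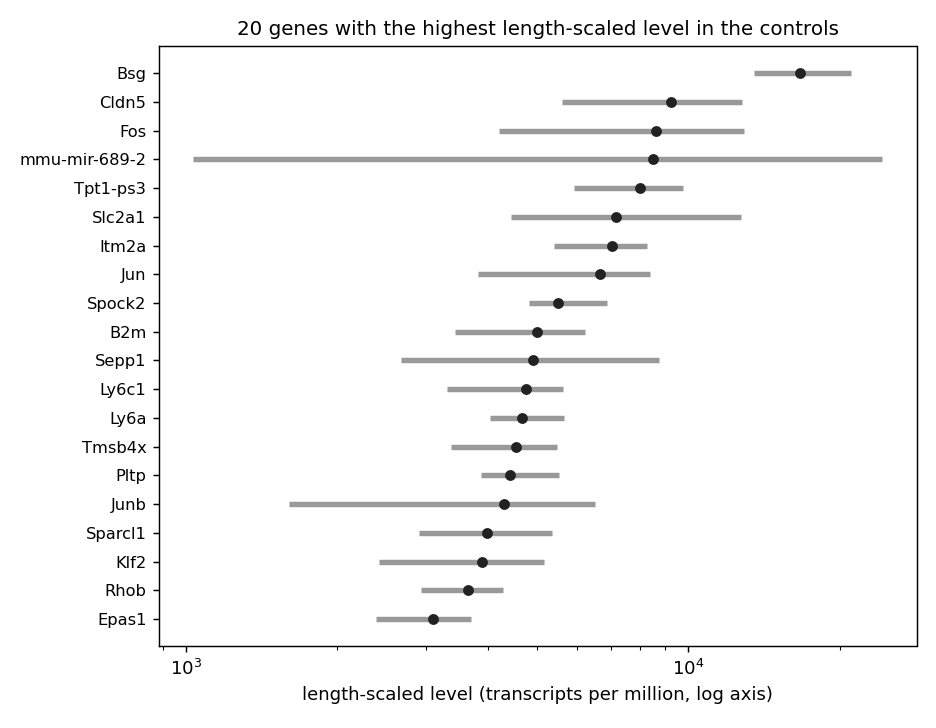
Length-scaled level of the 20 genes with the highest mean, in TPM on a log axis. Points are means of the 3 control groups and bars run from the lowest to the highest of the 11 libraries. Bsg leads at 16699 TPM, and the bars of mmu-mir-689-2 and Junb are the widest.

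Transcription factors of the immediate early class formed the second block of abundant transcripts. These genes are switched on within minutes by growth signals, flow or tissue handling. Fos was at 8626 ± 2678 TPM (SD, n = 11), Jun at 6659 ± 1421 TPM, Junb at 4288 TPM and the flow-responsive Klf2 at 3890 TPM. The 26 listed immediate early genes together took 1.98 to 5.50% of all reads, and 21 of them had a mean of at least 100 CPM. By CPM alone, without length, the order was Spock2, Bsg, the VEGF receptor Flt1, Slc2a1, Jun, Fos, the spectrin Spnb2, Epas1, Fosb and the matrix protein Fn1. Expression was spread over many genes: the 10 most abundant held 5.80 to 6.72% of reads, the 100 most abundant 21.8 to 24.4%.

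Junction genes split into a large expressed set and a silent one. Of 20 listed tight junction genes, 14 averaged 1 CPM or more and 11 averaged 100 CPM or more. Behind Cldn5 came the adhesion protein Esam at 1482 ± 78.4 TPM (SD, n = 11), the scaffold Tjp1, also called ZO-1, at 565 ± 103 TPM and occludin (Ocln) at 456 ± 50.9 TPM. Jam2 was at 399 TPM and Lsr, a protein of tricellular junctions, at 392 TPM. The second claudin by level, Cldn12, reached 21.5 TPM. Cldn3 lay at 0 to 0.272 CPM, with reads in 8 of 11 libraries, and Cldn1 at 0 to 0.193 CPM. A count of 0 allows up to 0.0520 to 0.163 CPM at these depths, taking 3 reads as the limit and covering counting error only. Among the 21 listed genes of barrier Wnt signalling, 20 had a mean of at least 1 CPM. They included the transcription factor Lef1 (214 to 294 CPM) and the feedback gene Axin2 (111 to 223 CPM).

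Carriers showed a wide range of levels within each class. For glucose, Slc2a1 at 7185 TPM stood against 1.10 TPM for Slc2a3, the neuronal carrier GLUT3. The lactate carrier Slc16a1 was at 604 TPM. Among amino acid carriers, the large neutral carrier Slc7a5 was at 2712 ± 663 TPM (SD, n = 11), its partner chain Slc3a2 at 1133 TPM, the taurine carrier Slc6a6 at 1340 TPM, the glutamine carrier Slc38a3 at 654 TPM and the cationic carrier Slc7a1 at 334 TPM. For thyroid hormone and organic anions, Slco1c1 (1708 ± 205 TPM) and Slco1a4 (1695 ± 310 TPM) had close means. The lipid carrier Mfsd2a was at 927 TPM, the anion carrier Slc22a8 at 552 TPM and the thiamine carrier Slc19a3 at 449 TPM.

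Efflux pumps and receptors showed the same contrast between close relatives. Abcb1a, which encodes P-glycoprotein, was at 1666 ± 212 TPM (SD, n = 11), and its paralogue Abcb1b at 1.17 TPM. Abcc4 was at 597 TPM and Abcg2, the breast cancer resistance protein, at 431 TPM. Of the 10 listed pumps, 8 had a mean of at least 1 CPM. Among receptors that carry cargo across or into the cell, the Fc receptor Fcgrt was at 1046 TPM, the transferrin receptor Tfrc at 785 TPM, the lipoprotein receptor Lrp8 at 189 TPM and Lrp1 at 11.8 TPM.

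**Figure D2:**
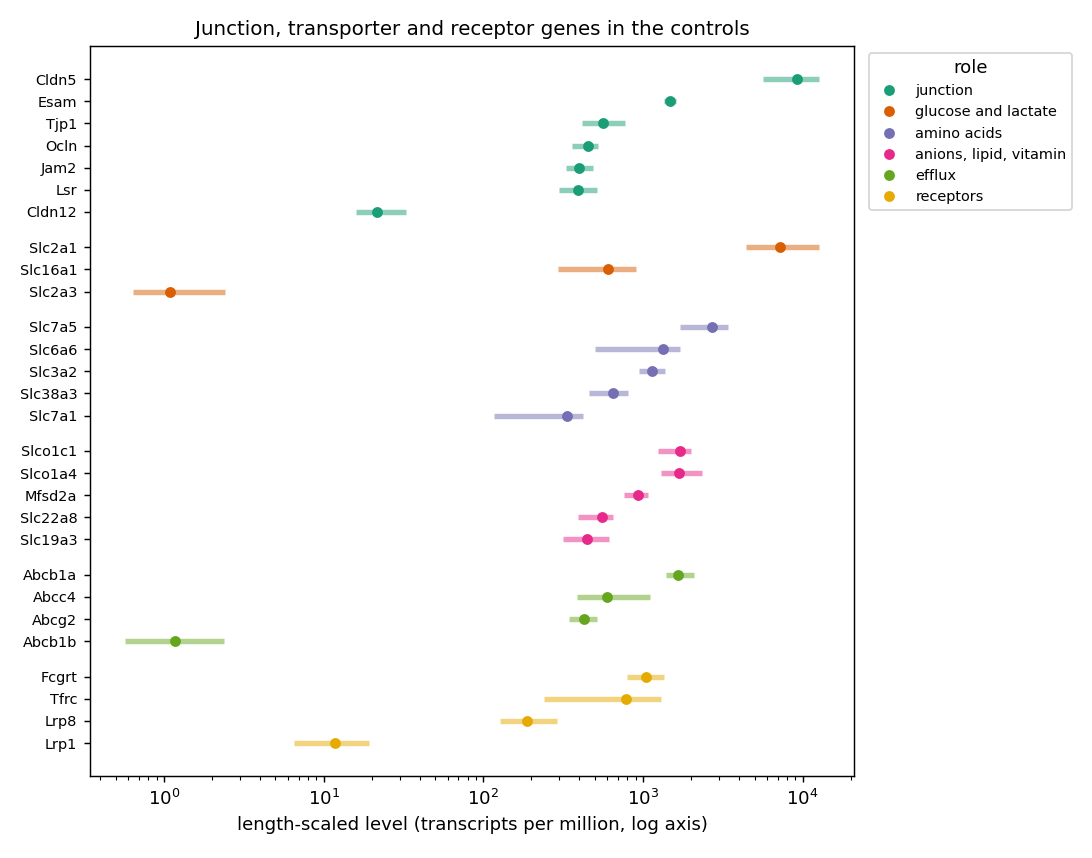
Length-scaled level of junction, carrier, efflux and receptor genes, in TPM on a log axis. Points are means of the 3 control groups, bars span the 11 libraries, and colours mark the role. Cldn5 and Slc2a1 stand at the top, while Abcb1b and Slc2a3 lie near 1 TPM.

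Markers of all 3 vessel segments were present, with capillary genes most abundant in sum. The 12 capillary markers summed to 19929 to 28701 CPM, the 16 arterial markers to 2180 to 3248 CPM and the 16 venous markers to 1564 to 2649 CPM. The sums depend on which genes a list holds and are no measure of cell numbers. In bulk RNA, more cells of a segment and more RNA per cell cannot be told apart. The arterial semaphorin Sema3g had 425 to 578 CPM and the venous von Willebrand factor Vwf 611 to 1326 CPM, its highest value again from silencing control 2. Plvap, the diaphragm protein of fenestrated vessels outside the barrier, lay at or below 1.20 CPM in 9 libraries. It reached 6.06 CPM in activation control 2 and 12.9 CPM in silencing control 1. The same 2 libraries held the most Ttr, the transthyretin of choroid plexus epithelium, at 48.3 and 30.4 CPM, against 0 to 7.23 CPM in the other 9.

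Markers of other cell types were low but uneven. The summed marker levels, as a percentage of the endothelial lists' sum, were 0.0851 to 0.213% for neurons, 0.0773 to 0.212% for microglia, 0.00195 to 0.00801% for blood leukocytes, 0.897 to 3.06% for astrocytes, 0.966 to 4.95% for pericytes and 0.508 to 2.75% for smooth muscle. Pericyte markers summed to 2376 CPM in activation control 1 and 2902 CPM in silencing control 1, against 591 to 1175 CPM in the other 9 libraries. Pdgfrb, the pericyte receptor for PDGF, showed the same 2 libraries on top, at 153 and 180 CPM against 29.1 to 63.1 CPM. Smooth muscle markers peaked at 1695 CPM in whisker-minus 2 and astrocyte markers at 1884 and 1633 CPM in whisker-minus 2 and 3, with 573 CPM in whisker-minus 1. The highest library was thus not the same for pericyte, smooth muscle and astrocyte lists.

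A few markers stood out from their own list. Mal, a myelin proteolipid, lay at 505 to 1885 CPM, while the other 13 oligodendrocyte markers summed to only 22.4 to 51.9 CPM. Stmn2, a stathmin of neurons, lay at 33.0 to 79.3 CPM, while the other 14 neuron markers summed to 9.05 to 66.4 CPM. Stab1 held 127 to 194 CPM of the macrophage list, whose other members each stayed at or below 1.58 CPM. For these genes the levels did not follow the rest of the list. Xist, the RNA of the inactive X chromosome, stayed at or below 0.416 CPM and Ddx3y of the Y chromosome at 86.1 to 176 CPM in all 11 libraries.

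**Figure D3:**
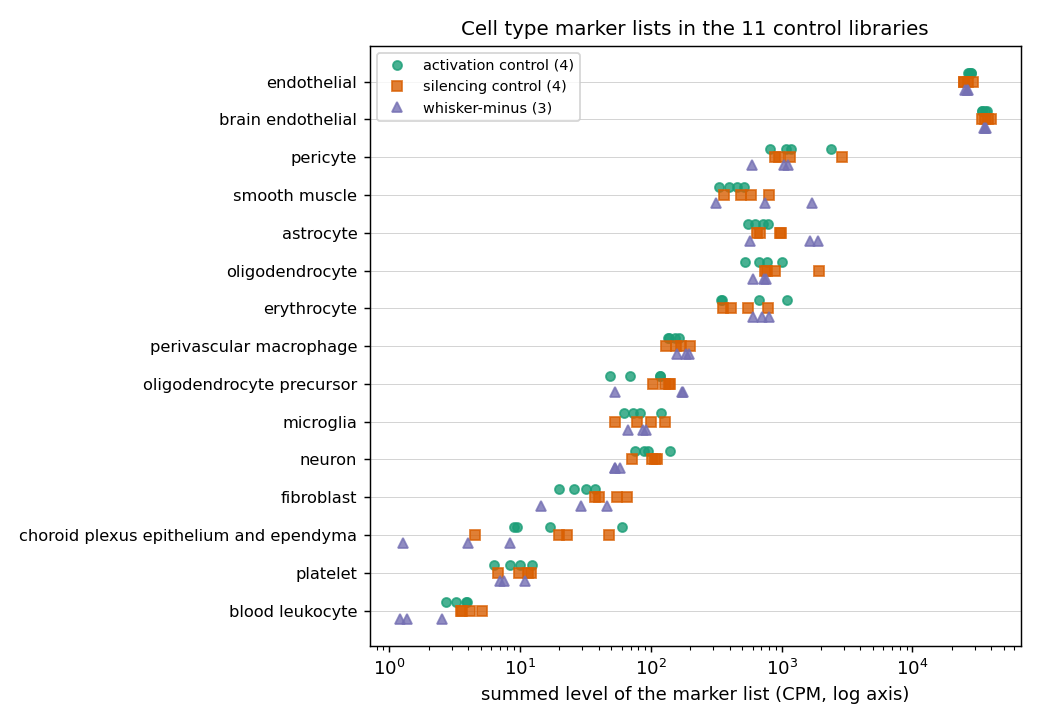
Summed level of each cell type marker list in each of the 11 libraries, in CPM on a log axis. Symbols mark the 3 control groups. Both endothelial lists lie at or above 24600 CPM in every library, and lists of other cell types lie at or below 2902 CPM.

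Whisker-minus libraries were next set against the 8 DREADD controls, to ask how far the resting endothelium of barrel cortex differs from that of cortex plus hippocampus. In limma 26 of 13446 tested genes passed at an adjusted p under 0.05 (0.193% of those tested), 9 higher (0.0669%) and 17 lower (0.126%). The count depended on the method: it was 135 with edgeR, 1135 with DESeq2 and 1193 in limma with all 22 libraries of the study. At an unadjusted p under 0.05 there were 2923 genes (21.7%). In 24 of the 26, every whisker-minus library lay beyond all 8 others. Over all tested genes, 498 (3.7%) had every whisker-minus library above all 8 and 359 (2.67%) below. Genes that pass have groups far apart for their spread, so this separation is largely built in and is no added support. The naming rule kept 19 of the 26: it required this separation and at least 5 CPM, and left out predicted genes. None of the 5 markers Pecam1, Cdh5, Cldn5, Slc2a1 and Abcb1a passed. The fit was on log2(CPM + 1), which understates changes of low genes, and the median difference of all genes was 0.027. Without silencing control 2 the count was 640 of 13362 (4.79%), 381 higher (2.85%) and 259 lower (1.94%), without whisker-minus 1 it was 502, and without any of 5 other libraries (activation control 4, silencing controls 1 and 4, whisker-minus 2 and 3) it was 5 to 14.

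Of the higher genes, Wdfy1, which encodes a protein of early endosomes, had the largest difference. It lay at 39.9, 48.6 and 49.3 CPM in whisker-minus, at 16.3, 12.1, 22.6 and 12.4 in the activation controls and at 14.3, 18.7, 10.8 and 12.7 in the silencing controls. The log2 difference was 1.58 ± 0.19 (SE), with an adjusted p of 0.00545 in limma, and no value overlapped, as the naming rule required. Nnt, the mitochondrial NAD(P) transhydrogenase, lay at 39.9, 40.2 and 45.0 CPM in whisker-minus against 13.2 to 20.9 CPM in the 8 controls, with a median of 16.5. Its difference was 1.29 ± 0.14 (adjusted p = 0.00226). Nnt carries a deletion in the C57BL/6J substrain, and Wdfy1 and the lower gene Entpd4 are known to differ between C57BL/6 substrains. These 3 were the members called among 5 tested substrain markers, beside 0.193% of all tested genes. That list was chosen with earlier results of these data known, so the count is no test of substrain. The labels of all groups say C57BL/6 only, and the part of substrain was not tested.

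The other 7 higher genes were more moderate. They were the calcium channel subunit Cacna1e (23.3 to 31.0 against 8.70 to 16.9 CPM), the microtubule protein Mtap1b (33.5 to 44.8 against 15.7 to 24.4 CPM) and the DNA damage kinase Atr (36.1 to 57 against 21 to 28.9 CPM). The transcription factor Nfib lay at 241, 244 and 248 CPM against 125 to 175 CPM, a log2 difference of 0.71 ± 0.11 (adjusted p = 0.0273 in limma). Gimap8 of the immune GTPases, Cpsf6 of the polyadenylation machinery and D4Wsu53e completed the set, with differences of 0.64, 0.62 and 0.93. For D4Wsu53e the whisker-minus values were 364, 396 and 529 CPM and the others 178 to 303 CPM. In each of these genes the lowest whisker-minus library exceeded the highest control, as the naming rule required. Cacna1e, D4Wsu53e, Atr and Cpsf6 passed narrowly (adjusted p = 0.0494 each in limma). Without whisker-minus 3 their adjusted p was 0.247 to 0.278 in the same test.

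Among the lower genes, Nsg2, an endosomal protein of neurons, lay at 1.92, 2.94 and 1.40 CPM in whisker-minus against 4.93 to 8.47 CPM, with a median of 6.92, in the 8 controls. The log2 difference was -1.38 ± 0.18 (SE, adjusted p = 0.0097 in limma). The lipid flippase Atp9a differed by -1.22 ± 0.13 (adjusted p = 0.00226): it was at 7.96, 12 and 9.02 CPM in whisker-minus, at 17.3 to 20.8 in the silencing controls and at 26.3 to 32.2 in the activation controls. The 3 groups formed 3 separate levels for Atp9a. Ramp3, a partner that turns the calcitonin receptor-like receptor into an adrenomedullin receptor, was at 11, 11.4 and 11.3 CPM against 18.0 to 29.8 CPM, a difference of -1.04 ± 0.14 (adjusted p = 0.0097).

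Receptors of inflammatory signals and a guidance cue were among the rest. The TNF receptor Tnfrsf1a lay at 62.8, 77.3 and 59.2 CPM against 89.2 to 123 CPM, and Crlf2, a chain of the TSLP receptor, at 16.1 to 17.1 against 23.7 to 33.2 CPM. Both passed narrowly (adjusted p = 0.0494 each in limma), and without whisker-minus 3 their adjusted p was 0.288 and 0.247. Netrin-1 (Ntn1), an axon guidance cue, lay at 30.9 to 43.5 against 57.7 to 85.5 CPM. The mitochondrial aldehyde dehydrogenase Aldh2 was at 318, 341 and 321 CPM against 433 to 503 CPM, a difference of -0.53 ± 0.09 (adjusted p = 0.0321 in limma). Entpd4, a nucleotidase of the Golgi (-1.02), the histone variant H2afj (-0.78) and the RNA-binding Hnrnpa0 (-0.59) were the other 3. Outside the naming rule, 2 low genes that passed were chosen after their values were seen: Crym, a thyroid hormone binding protein, had no read in whisker-minus and 1.03 to 3.02 CPM elsewhere, and Pydc3 had 0 to 0.0347 against 0.835 to 3.19 CPM. The remaining genes that passed were 4 predicted genes and Cd55, described with the DREADD controls.

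**Figure D4:**
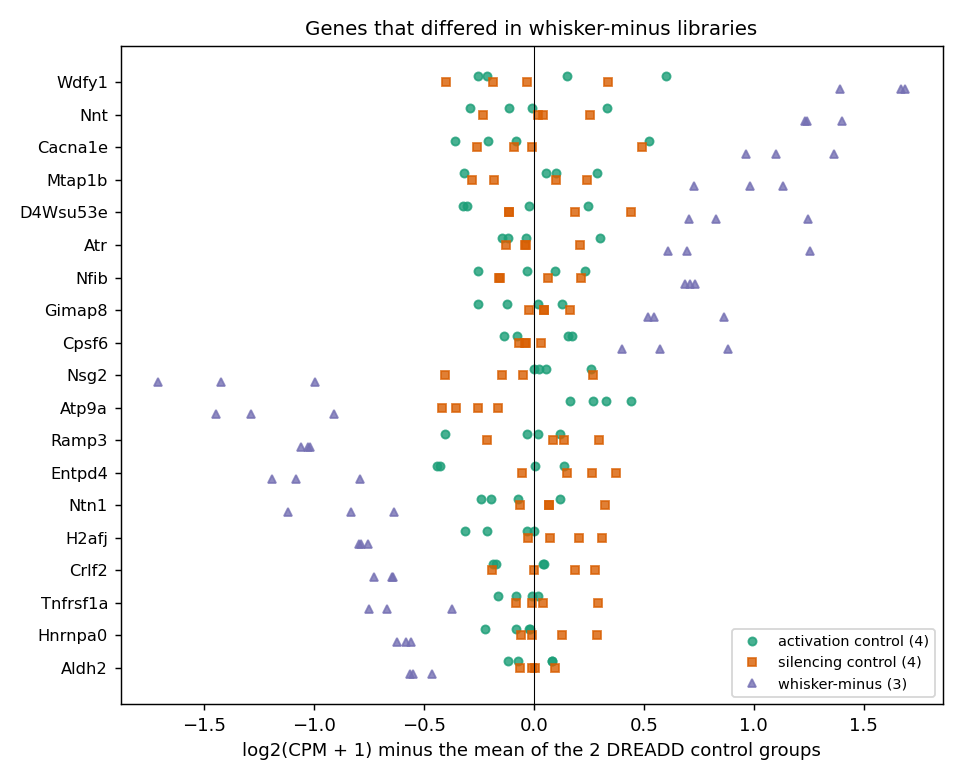
Each library's log2(CPM + 1) minus the mean of the 2 DREADD control groups, for the 9 higher and 10 lower named genes. Symbols mark the groups, and the line at 0 is the mean of the DREADD controls. All whisker-minus points lie beyond all DREADD control points, as the naming rule required, with Wdfy1 and Nsg2 at the extremes.

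Immediate early genes lay lower in whisker-minus as a list, although no member passed. Of 26 tested, 25 had a difference below 0, as 45.8% of all tested genes did, with a median of -0.78 beside 0.027 for all genes. An unadjusted p under 0.05 was found for 17, as for 21.7% of all tested genes. Fos lay at 5429, 3725 and 2401 CPM in whisker-minus, at 8485, 5826, 4145 and 7303 in the activation controls and at 8340, 5070, 5890 and 5915 in the silencing controls. The difference was -0.77 ± 0.28 (adjusted p = 0.153 in limma), and the ranges overlapped. Jund (361 to 611 against 637 to 1666 CPM, adjusted p = 0.0531 in limma) and Ier5 (194 to 251 against 317 to 544 CPM, adjusted p = 0.0622 in limma) lay below all 8 controls, as 2.67% of all tested genes did. The sum of the list was 38403, 28627 and 19847 CPM in whisker-minus and 31350 to 54991 CPM in the 8 controls. Without silencing control 2, 6 of the 26 passed, all lower (Junb, Jund, Ier2, Ier3, Ier5 and Btg2), where 1.94% of all tested genes were called lower. A lower list was not particular to whisker-minus. In the silencing control against the activation control, 25 of the 26 also lay below 0 with all libraries. Their median there was -0.31 beside 0.065 for all genes, and none passed.

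Genes of the glucocorticoid response leaned the other way. Of 19 tested, 14 lay above 0, as 54.2% of all tested genes did, with a median of 0.41, and none passed. Tsc22d3, a leucine zipper protein induced by glucocorticoids, lay at 996, 1041 and 894 CPM in whisker-minus, against 222 to 679 CPM with a median of 473 in the 8 controls. The difference was 1.20 ± 0.28 (adjusted p = 0.0746 in limma). The stress gene Ddit4 also lay above all 8, at 142, 163 and 183 CPM against 44.1 to 134 CPM, as 3.7% of all tested genes did. Silencing control 2 had the highest value of the 8 in both genes. Without it, 5 of the 19 passed, all higher, where 2.85% of all tested genes were called higher: Fkbp5, Klf15, Hif3a, Tsc22d3 and Angptl4. The sum of the list was 4415 to 5494 CPM in whisker-minus and 2996 to 6413 CPM in the 8 controls, so the ranges overlapped. In the silencing control against the activation control, with all libraries, 15 of the 19 lay above 0 as well (median 0.37), and none passed.

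Barrier genes went both ways. Cldn5 lay at 2277 to 3044 CPM in whisker-minus, below 7 of the 8 DREADD controls (3435 to 5172 CPM) and above silencing control 2 (2102 CPM). Its difference was -0.49 ± 0.25 (adjusted p = 0.269 in limma), and -0.63 ± 0.17 without that library (adjusted p = 0.0503). The tight junction sum, to which Cldn5 adds, was 7888 to 8671 CPM in whisker-minus, 8822 to 10577 CPM in the same 7 controls and 6770 CPM in silencing control 2. By gene, of 15 tested tight junction genes 9 lay above and 6 below 0, with a median of 0.05, and of the 49 genes in the authors' own barrier list 31 lay above and 18 below 0, with a median of 0.06. All 8 tested efflux pumps lay above 0, with a median of 0.27, and 5 had an unadjusted p under 0.05. Over all tested genes 54.2% lay above 0 and 21.7% had an unadjusted p under 0.05. Abcg2 was at 1020, 1129 and 1017 CPM in whisker-minus and at 810 to 1003 CPM in the 8 controls, with a difference of 0.24 ± 0.11 (adjusted p = 0.224 in limma). The thiamine carrier Slc19a3 came closest to the threshold among carriers, at 470, 470 and 459 CPM against 272 to 371 CPM (0.55 ± 0.11, adjusted p = 0.0565 in limma). Slc3a2 leaned lower, at 875, 932 and 819 against 1024 to 1397 CPM (-0.44 ± 0.12, adjusted p = 0.0987 in limma). No gene of these lists passed with all 11 libraries. Without silencing control 2, the tight junction genes turned to 7 above and 8 below 0.

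In that refit 10 of 126 tested genes of the junction, efflux, Wnt, carrier and receptor lists passed in limma (7.94%), beside 4.79% of all tested genes. The 6 that rose were the Wnt receptor Fzd4 (0.89), the monocarboxylate carrier family member Slc16a6 (0.76), the insulin receptor Insr (0.73), the ion channel Trpm7 (0.66), Lrp8 (0.58) and Slc19a3 (0.54). The 4 that fell were the fatty acid transport protein Slc27a3 (-0.76), the monoamine carrier Slc29a4 (-0.76), the amino acid carrier Slc38a5 (-0.61) and Slc3a2 (-0.47). Of the brain endothelial markers, the transcription factor Foxq1 fell (-0.46, adjusted p = 0.0354 in limma).

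Most arterial, venous and adhesion genes lay below 0, as 45.8% of all tested genes did. Of 16 tested arterial genes 14 lay below 0, with a median of -0.31, and of 15 venous genes 12, with a median of -0.18. Capillary genes were near the share over all genes, with 7 of 12 below 0 and a median of -0.02. The matrix protein Mgp, at 43.9, 84.1 and 29.9 CPM against 69.0 to 146 CPM, had the largest arterial difference (-0.92 ± 0.26, adjusted p = 0.104 in limma). Of 11 tested genes of leukocyte adhesion 10 lay below 0, with a median of -0.57. Icam1, the adhesion receptor for leukocytes, was at 114, 57.2 and 45.8 CPM against 69.7 to 689 CPM, highest in activation control 2 (adjusted p = 0.119 in limma). Between the 2 DREADD control groups, 12 of the 16 arterial, 8 of the 15 venous and 8 of the 11 adhesion genes also lay below 0. These differences were silencing control minus activation control, with medians of -0.10, -0.05 and -0.18. In the whisker-minus comparison none of these genes passed. Without silencing control 2, the capillary carbonic anhydrase Car4 (-0.58, adjusted p = 0.0302 in limma) fell, as did Slc38a5, which is also on the venous list.

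Marker lists of other cells differed in direction in the same comparison. All 12 pericyte markers and all 9 tested neuron markers had differences below 0, with medians of -0.66 and -0.69. The sum of neuron markers was 53.1, 57.7 and 53.4 CPM in whisker-minus and 71.3 to 139 CPM in the 8 controls, and Stmn2 held most of it. The other 14 neuron markers summed to 20.2, 14.4 and 9.05 CPM in whisker-minus and to 16.3 to 66.4 CPM in the 8 controls. Without Stmn2 the ranges thus overlapped. Of 8 tested fibroblast markers 7 lay below 0 (median -0.41), and of 15 microglia markers 7 (median 0.18). Of 9 smooth muscle markers 8 lay above 0 (median 0.50), and of 16 astrocyte markers 14, with a median of 0.70. Over all tested genes 54.2% lay above 0 and 45.8% below. In the silencing control against the activation control, 9 smooth muscle and 14 astrocyte markers lay above 0 as well (medians 0.39 and 0.42). Pericyte, neuron and fibroblast markers went the other way there, with 11, 6 and 8 above 0. For the astrocyte glutamate carrier Slc1a2 the values were 79.6, 470 and 489 CPM in whisker-minus and 46.8 to 154 CPM elsewhere. None of these markers passed with all 11 libraries. Without silencing control 2, Stmn2 fell (-0.77, adjusted p = 0.0118 in limma), and the astrocyte connexin Gjb6 (1.77, adjusted p = 0.034) and the smooth muscle protein Smtn (0.48, adjusted p = 0.0192) rose. The part of these cells in the differences above was not tested. With TMM or RLE scaling, the side of 0 that held more members stayed the same for the immediate early, glucocorticoid, tight junction, efflux, segment, adhesion, pericyte, neuron, fibroblast, microglia, smooth muscle and astrocyte lists.

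The 2 DREADD control groups were also compared, since both are littermate controls given CNO and pooled above. Of 13446 tested genes 14 passed (0.104%), 1 higher and 13 lower in the silencing control, and 867 had an unadjusted p under 0.05. Of the 14, 9 carry names of predicted genes or clones. Cd55, an inhibitor of complement, lay at 18.2, 18.5, 19.3 and 20.8 CPM in the activation controls and at 3.91, 4.56, 4.44 and 5.80 in the silencing controls. The log2 difference was -1.84 ± 0.15 (SE, adjusted p = 0.000159 in limma). In whisker-minus it was at 3.24, 3.96 and 2.69 CPM, so its call in that comparison rests on the activation controls: the difference was -2.24 from them and -0.40 from the silencing controls.

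Other genes that passed were named by the same rule, which required separate levels in the groups compared. Lypd1, a membrane-anchored Ly6-type protein, was the gene that lay higher in the silencing controls, at 8.79 to 11.1 against 3.32 to 4.21 CPM (1.18 ± 0.17, adjusted p = 0.0181 in limma), and whisker-minus lay at 8.55 to 14.9 CPM. Rnpep, an aminopeptidase, had 28.2 to 50.1 against 74.1 to 90.2 CPM (-1.05 ± 0.16, adjusted p = 0.0208 in limma), with 34.2 to 43.0 CPM in whisker-minus. Lars2, the mitochondrial leucyl-tRNA synthetase, had 136 to 194 against 295 to 683 CPM, and the small nuclear RNA 7SK 1.16 to 2.02 against 7.22 to 18.1 CPM, with differences of -1.52 and -2.27. For Cd55, Lypd1 and Rnpep the whisker-minus values lay near those of the silencing controls. Ide, the insulin-degrading enzyme and another substrain marker, had 34.1 to 58.8 against 64.6 to 99.5 CPM but did not pass (adjusted p = 0.0808 in limma). Experiment, with any batch that goes with it, transgene label and depth differ together between these groups and cannot be told apart.

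Within groups most genes were steady. The pooled SD of log2(CPM + 1) within groups had a median of 0.20 over the 8901 genes averaging 10 CPM or more, and 25 genes exceeded 1. The 10 most variable were Fkbp5, Hspa1b, Acta2, Doc2b, Zbtb16, Rps2-ps10, mmu-mir-689-2, Lcn2, Myh11 and Nr4a3. They include the glucocorticoid target Fkbp5, the heat shock gene Hspa1b and the contractile genes Acta2 and Myh11. Endothelial markers had a median SD of 0.17, against 0.84 for pericyte and smooth muscle markers, 0.66 for astrocyte and 0.57 for glucocorticoid response genes.

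Silencing control 2 set several of these. Fkbp5, a chaperone induced by glucocorticoids, had 469 CPM in it and 8.86 to 32.2 CPM in the other 7 DREADD controls, with 45.9, 74.1 and 47.8 CPM in whisker-minus. Doc2b, a calcium sensor of vesicle release, had 308 CPM in it, 7.02 to 28.5 CPM in the other 7 and 79.4 to 89.6 CPM in whisker-minus. Zbtb16, a zinc finger factor, ran from 8.16 to 214 CPM, and the iron-binding Lcn2 from 1.58 to 89.8 CPM, each highest in that library. Some of its barrier genes stood apart too: Slc2a1 was at 11784 CPM, Slc6a6 at 1114, Tfrc at 392 and Slc7a1 at 356 CPM, against 4458 to 7990, 2593 to 4055, 1011 to 2182 and 869 to 1321 CPM in the other 10 libraries. Angpt2, a vessel-destabilising ligand, was at 315 CPM against 24.9 to 49.0 CPM. The 16 hypoxia response genes, which include Slc2a1, summed to 15291 CPM in it and to 5898 to 10344 CPM elsewhere. In that library 27 genes exceeded every other library by more than 2 times and 21 lay as far below, against at most 12 either way in the rest.

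Heat shock genes varied on another axis. Hspa1b, an inducible HSP70 chaperone, was at 66.8, 1139, 1424 and 315 CPM in the activation controls, at 412, 106, 63.3 and 260 in the silencing controls and at 141, 90.8 and 75.2 in whisker-minus. Its near-identical copy Hspa1a was at 143, 885, 874 and 368, at 439, 146, 135 and 288, and at 197, 120 and 91.8 CPM. Activation controls 2 and 3 were high for both, and the groups overlapped. Reads of the 2 genes can be shared, so their separate levels are uncertain. The upstream windows of the pair and of Fos, the immediate early gene with the highest level per length, are shown because these genes were among the most variable or most abundant. The sequences are from RefSeq (GRCm38.p6), 250 bases ending just before the annotated start, in the gene's orientation. Hspa1a covers chr17:34972157-34972406 and Hspa1b chr17:34959239-34959488, both on the minus strand, and Fos covers chr12:85473640-85473889 on the plus strand.
Hspa1a: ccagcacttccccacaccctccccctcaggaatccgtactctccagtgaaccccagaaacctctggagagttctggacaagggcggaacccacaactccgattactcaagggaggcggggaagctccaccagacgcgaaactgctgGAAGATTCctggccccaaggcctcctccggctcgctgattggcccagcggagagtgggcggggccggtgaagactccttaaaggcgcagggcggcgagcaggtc
Hspa1b: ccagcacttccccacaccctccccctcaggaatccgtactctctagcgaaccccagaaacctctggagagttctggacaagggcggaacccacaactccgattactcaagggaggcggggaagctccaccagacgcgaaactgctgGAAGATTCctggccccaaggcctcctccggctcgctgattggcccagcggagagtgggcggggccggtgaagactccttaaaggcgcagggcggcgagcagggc
Fos: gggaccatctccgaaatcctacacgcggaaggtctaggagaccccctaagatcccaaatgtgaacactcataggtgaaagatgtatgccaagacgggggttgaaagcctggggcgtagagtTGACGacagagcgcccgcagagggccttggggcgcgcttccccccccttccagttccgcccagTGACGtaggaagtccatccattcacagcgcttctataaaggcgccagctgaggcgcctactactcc
Capitals mark the heat shock element letters GAANNTTC in the HSP70 pair, a palindrome read on both strands, and the CREB and ATF letters TGACG on either strand in Fos. The HSP70 windows were identical at 247 of 250 bases (98.8%), and each held the heat shock letters 1 time, starting 104 bases before the start. Fos held TGACG 2 times. Of 27025 windows of this length, 6.78% held GAANNTTC and 17.9% held TGACG, so a match is a description and not a shown binding site.

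Contractile genes marked yet other libraries. Acta2, the smooth muscle actin, was at 12.9, 508 and 163 CPM in whisker-minus, at 97.1, 27.0, 41.2 and 60.1 in the activation controls and at 100, 142, 88.7 and 49.4 in the silencing controls. Myh11, the smooth muscle myosin, peaked in the same library at 416 CPM against 22.6 to 174 CPM elsewhere. The nuclear receptor Nr4a3, an immediate early gene, ran from 8.52 CPM in whisker-minus 3 to 212 CPM in activation control 2. The library that was highest thus differed between the stress, contractile and pericyte genes.

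**Figure D5:**
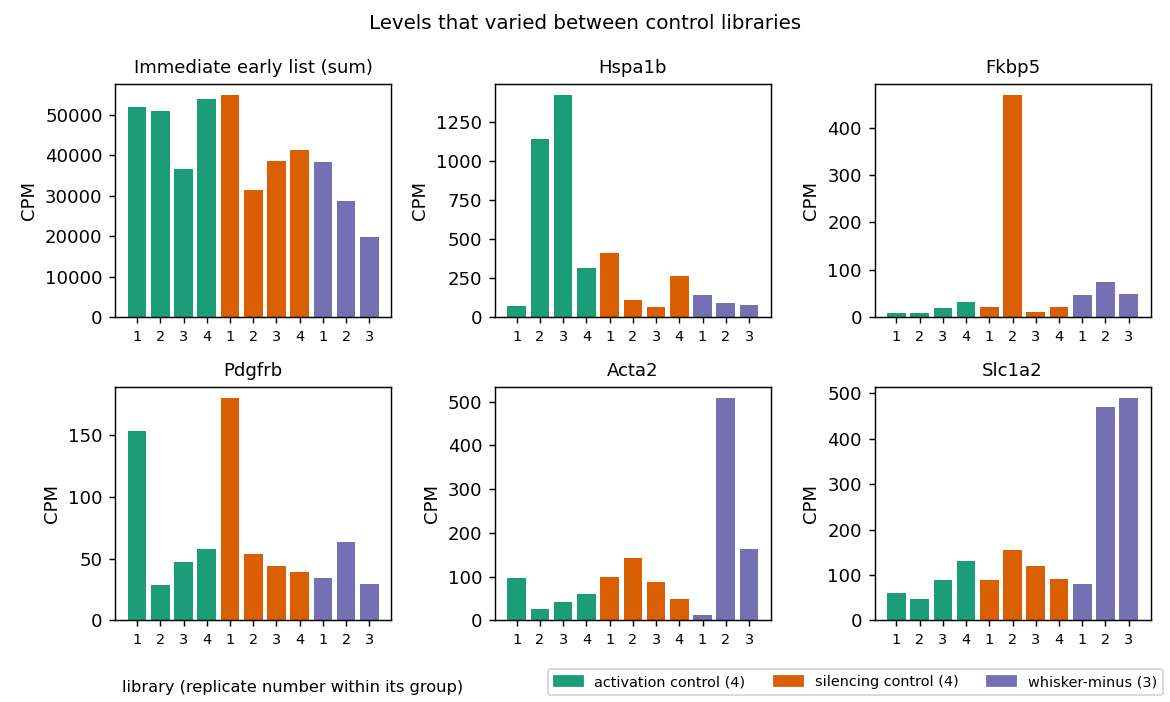
Level in each of the 11 libraries, in CPM on linear axes from 0, for the summed immediate early list and for Hspa1b, Fkbp5, Pdgfrb, Acta2 and Slc1a2. Bars are single libraries, coloured by group and numbered by replicate. The highest bar is not the same library in every panel: Fkbp5 peaks in silencing control 2 at 469 CPM, Acta2 in whisker-minus 2 at 508 CPM and Pdgfrb in silencing control 1 at 180 CPM.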

How the data were processed

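The values used were CPM, as the authors deposited them (per the file headers), in 11 control columns of a table with 37991 genes. All values were whole multiples of the worth of 1 read within 0.01 read (100%), which gave back the reads. Upstream tools, per the submitters' processing notes, were HTSeq 0.6.1, SAMtools 0.1.19, TopHat2 2.0.11, DESeq2 and Bowtie2 2.2.1, with build mm9. No source used here gives the strand handling. Overlapping or near-identical genes may share reads. The authors' list of barrier genes also holds deposited mean CPM values, which were not used. No source used here says how its genes were picked.

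Genes with at least 1 CPM in at least 3 libraries were tested with limma 3.58.1 in R 4.3.3 (mean-variance trend) on log2(CPM + 1), in a fit of 3 groups with no scaling beyond CPM and no covariate. A gene passed at p under 0.05 after Benjamini-Hochberg adjustment over all tested genes. Whisker-minus was set against the mean of both DREADD control groups. On simulated counts for 13228 genes in that comparison, 92 of 100 genes changed by 1 log2 unit were recovered, and 100 of 100 changed by 2. Of the unchanged genes 14 were called. The changed genes all averaged 10 CPM or more, genes varied independently and no library was made to stand apart. Recovery of lower genes, or with a library like silencing control 2, was not tested. Recovered reads were also tested with edgeR 4.0.16 (quasi-likelihood), which called 135 genes in that comparison, and DESeq2 1.42.0, which called 1135.

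Exon lengths and names came from GENCODE M21, another build than mm9, in which 86.6% of gene IDs were found. They hold 99.0% of control CPM. Named genes follow a rule: the 20 highest per length, the 10 highest by CPM, passing genes with separate groups and at least 5 CPM, and the 10 most variable with at least 10 CPM, without predicted genes. Other genes are examples from 42 lists. The members and lists were chosen with earlier results of these data known. Replicates are called biological samples in the series text.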

Additional observations from a re-analysis of the deposited data

Results flagged for a closer look

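In groups of 4 libraries, 32 of 316 sets of values had a library far from the other 3. The rule flags about 1 in 20 independent sets by chance. These sets came from genes and lists named in the text, some of them for their spread, and several share genes. The count therefore cannot be set against that rate. Silencing control 2 accounted for 16. It was high for Slc2a1 (11784 CPM, others 5437 to 5995), Sepp1 (6559 CPM), Fkbp5 (469 CPM), Doc2b (308 CPM), Abcc4 (1883 CPM), Mal (1885 CPM), Angpt2 (315 CPM), Angptl4 (342 CPM), the mitophagy receptor Bnip3 (151 CPM), the hypoxia gene Ndrg1 (2464 CPM, others 935 to 1007), Slc16a6 (18.8 CPM) and the insulin receptor Insr (705 CPM). It was also high for the summed oligodendrocyte markers (1917 CPM), most of which was Mal, and the summed hypoxia genes (15291 CPM), most of which was Slc2a1. It was low for Jun (4692 CPM, others 6915 to 7298) and Rhob (1909 CPM, others 2620 to 2759).

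Silencing control 1 was high for Pdgfrb (180 CPM), the summed pericyte markers (2902 CPM), Plvap (12.9 CPM), Fosb (7466 CPM), Slc2a3 (4.84 CPM) and Abcg2 (1003 CPM), and it alone of its group had reads of Cldn1 (0.0995 CPM). Activation control 2 was high for Plvap (6.06 CPM), Ttr (48.3 CPM) and the summed markers of choroid plexus and ependyma (60.3 CPM). Activation control 1 was low for Slc2a1 (4458 CPM) and the summed hypoxia genes (5898 CPM) and high for Fcgrt (724 CPM) and Vamp8 (81.1 CPM). Activation control 4 was high for the pseudogene Rps2-ps10 (99.6 CPM, others 5.87 to 10.3) and low for Slc16a6 (3.93 CPM). The part of any technical step in these values was not tested.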

How the results depend on the processing

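The 26 genes of the whisker-minus comparison became 1193 with all 22 libraries in the fit, 135 with edgeR, 1135 with DESeq2 and 5 with the replicate block. Leaving out single libraries gave 5 to 640: 640 without silencing control 2, 502 without whisker-minus 1, 13, 13 and 14 without activation control 4, silencing control 1 and silencing control 4, and 6 and 5 without whisker-minus 2 and 3. The 14 genes of the DREADD control comparison became 8 with no filter, 4 with a filter at a mean of 10 CPM and 45 with DESeq2. Leaving out single libraries gave 6 to 23, with 23 without whisker-minus 3 and 6 to 9 without activation control 1 or 4 or silencing control 1, 2 or 3. The cause of these moves was not tested. TMM gave 14 higher and 25 lower genes, and RLE 10 and 24, against 9 and 17. In 22 refits the 24 named genes gave 519 values, of which 137 missed the threshold and none changed sign. The genes were named for separate groups, which makes a change of sign unlikely. Nnt, Atp9a, Cd55 and 7SK passed in every refit that tested them.

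Deviations of same-numbered libraries correlated at -0.14 to 0.36, and those of differently numbered libraries at -0.33 to 0.38. The first range lay inside the second. Fewer pairs share a number than do not, so nested ranges cannot show whether libraries were paired by number. A shared preparation of same-numbered libraries was not tested. With the block, the DREADD control comparison gave 11 genes. Leaving out single libraries put the mean sums of marker lists at 26260 to 26750 CPM for endothelial and 35637 to 36282 for brain endothelial markers. The mean sums were 79.9 to 87.3 CPM for neuron, 867 to 1085 for astrocyte and 1095 to 1318 for pericyte markers. Each is a mean of group means, which shifts by only a small part of the deviation of any library left out. Such a shift could not exceed the SD over the libraries, so these ranges do not test how far the sums depend on single libraries. Leaving out single libraries also gave 23 to 34 genes with an SD over 1. By CPM without length, 14 of the 20 most abundant genes moved in rank by more than the SD of their rank over the libraries. Low genes rest on few reads, with a limit of 0.0520 to 0.163 CPM for a count of 0.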

Other observations

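Gene groups not described above were also counted in whisker-minus against the DREADD controls, and none of their members passed in limma with all 11 libraries. Of 14 tested hypoxia response genes 13 lay above 0, with a median of 0.30, of 17 clock genes 10, with a median of 0.13, and of 20 interferon response genes 12, with a median of 0.09. Of 13 genes of caveolae and transcytosis 10 lay below 0 (median -0.14), of 13 basement membrane genes 8 (median -0.06) and of 15 heat shock genes 10 (median -0.15). Over all tested genes 54.2% lay above 0 and 45.8% below. In the silencing control against the activation control, 11 hypoxia and 12 interferon genes lay above 0 as well, and 10 caveolae and 15 heat shock genes below. Clock and basement membrane genes went the other way there, with 13 below and 11 above 0.

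Without silencing control 2, some members of these lists passed in limma, beside 4.79% of all tested genes. The hypoxia genes Bnip3 (0.92, adjusted p = 0.00709), Ndrg1 (0.54) and Kdm3a (0.36) rose, as did the caveolar protein Sdpr (0.61) and the basement membrane nidogen Nid2 (0.57). The laminin chain Lama4 (-0.73), the vesicle fusion protein Vamp8 (-0.51) and the antiviral protein Ifitm3 (-0.59) fell. These lists were read with the earlier results of the data known.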
